A study of Mus musculus with 3 samples.

Results

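The genes described here are the longest protein-coding genes of the mouse genome, those whose span from start to end covers 500 kb or more. The span of each gene on the 19 autosomes was taken from the RefSeq gene table (GRCm38.p6, whose coordinates are those of mm10), and 215 of the 20556 protein-coding autosomal genes reached this length. Of these, 6 were left out by name and are not analysed here, which leaves 209 genes. They cover 174.3 Mb or 7.25% of autosome length, have a median length of 734 kb and reach from 501754 bp (Edil3) to 2270506 bp (Ptprd), with 53 genes of 1 Mb or more. Apart from the 6 names, a gene belongs here by its length and not by a measured value.

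The material was erythroblasts, the nucleated precursors of red cells, from mouse fetal liver. Cells without Ter119, a surface protein that appears late in red cell formation, were taken from 6 fetuses and grown in IMDM with insulin, 1% BSA, serum at 10% and erythropoietin at 2 U/ml, a hormone that stimulates red cell production. Chromatin was prepared on culture days 0, 1 and 2 and cut with micrococcal nuclease, an enzyme that digests the DNA between nucleosomes, so that the single-nucleosome DNA could be sequenced. All 3 days share this medium, no strain, fetal age or genotype is given in the sources used here, and the series asks how nucleosomes change in the last steps of red cell formation. The labels do not say if the fetuses were pooled or if a single culture was followed. There was 1 library per day, so no test between days was possible, and differences between days stand without replicates. The lists hold no expression values, so the labelled cell type was not checked against markers.

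Each library was deposited as a list of nucleosome positions 140 bp wide, called separately by day. The autosomes held 3689577, 2967550 and 4382151 positions on days 0, 1 and 2, which is 1.54, 1.23 and 1.82 positions per kb. Because the lists differ in size, the density of a gene is given here as its positions per kb divided by the positions per kb of the autosomes in the same list, so that 1 is the autosome mean of that day. This quantity, called relative density below, counts listed positions. A region with few of them has few places where the signal passed the authors' calling, which is not the same as free DNA. Intervals are exact 95% intervals that cover counting error only.

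A gene of this length consists almost wholly of intron. Many genes of the class act in neurons, where they encode adhesion molecules, synaptic scaffolds and ion channels, and they commonly lie in gene-poor surroundings. Transcribing such a gene takes a polymerase many hours, and only a few of them have a known role in blood cells. Setting the body of each gene beside the 500 kb on either side of it, in the same library, separates what belongs to the gene from what belongs to its neighbourhood.

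The DNA just before an annotated start of 6 of these genes is shown first, since the start of a long gene held more positions than the rest of its body, as described further on. They are the 3 genes with the highest and the 3 with the lowest ratio of body to flank density on day 2 among the genes with a full symbol that have a RefSeq promoter entry within 1 kb of the 5′ edge of the span. Each line gives the 250 bases before the annotated start, 5′ to 3′ on the gene's strand, from RefSeq (GRCm38.p6), and capitals mark bases inside a listed day 2 position. The annotated start can differ from the edge of the span. The Anks1b window lies inside the span counted as its body, and the windows of Nav2 and Sdk1 run slightly into theirs. The lists do not state if coordinates count from 0 or 1, so the limits of the capitals may be off by 1 base. The bodies of Nav2 (chr7:48958823-48959072, plus strand), Elmo1 (chr13:20090257-20090506, plus strand) and Syne1 (chr10:5550693-5550942, minus strand) were denser than their flanks.
Nav2: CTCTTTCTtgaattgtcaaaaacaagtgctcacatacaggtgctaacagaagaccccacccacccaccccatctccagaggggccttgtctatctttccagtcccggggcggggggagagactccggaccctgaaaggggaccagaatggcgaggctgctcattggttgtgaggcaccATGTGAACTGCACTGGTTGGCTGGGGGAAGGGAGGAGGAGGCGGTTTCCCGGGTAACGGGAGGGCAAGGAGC
Elmo1: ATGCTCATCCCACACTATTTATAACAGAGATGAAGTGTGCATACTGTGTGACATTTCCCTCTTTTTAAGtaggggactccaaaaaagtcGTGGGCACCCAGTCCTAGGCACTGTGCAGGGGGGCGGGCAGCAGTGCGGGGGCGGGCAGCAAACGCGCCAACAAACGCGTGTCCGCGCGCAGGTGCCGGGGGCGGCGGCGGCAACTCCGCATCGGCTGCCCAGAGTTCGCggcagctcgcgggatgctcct
Syne1: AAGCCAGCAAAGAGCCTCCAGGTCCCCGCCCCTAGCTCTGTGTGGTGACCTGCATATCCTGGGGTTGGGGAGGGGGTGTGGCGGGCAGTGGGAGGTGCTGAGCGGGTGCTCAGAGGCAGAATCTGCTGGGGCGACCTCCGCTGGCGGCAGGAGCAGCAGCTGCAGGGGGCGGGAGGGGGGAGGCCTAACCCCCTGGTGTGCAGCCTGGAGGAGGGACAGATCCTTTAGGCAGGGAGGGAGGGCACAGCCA
The bodies of Sdk1 (chr5:141241284-141241533, plus strand), Anks1b (chr10:89873259-89873508, plus strand) and Camta1 (chr4:151861769-151862018, minus strand) were less dense than their flanks.
Sdk1: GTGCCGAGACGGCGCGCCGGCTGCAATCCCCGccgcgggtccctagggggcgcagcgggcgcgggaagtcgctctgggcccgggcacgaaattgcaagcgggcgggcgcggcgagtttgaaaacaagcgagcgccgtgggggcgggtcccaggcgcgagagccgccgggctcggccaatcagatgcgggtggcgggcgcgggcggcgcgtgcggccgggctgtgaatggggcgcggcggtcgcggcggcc
Anks1b: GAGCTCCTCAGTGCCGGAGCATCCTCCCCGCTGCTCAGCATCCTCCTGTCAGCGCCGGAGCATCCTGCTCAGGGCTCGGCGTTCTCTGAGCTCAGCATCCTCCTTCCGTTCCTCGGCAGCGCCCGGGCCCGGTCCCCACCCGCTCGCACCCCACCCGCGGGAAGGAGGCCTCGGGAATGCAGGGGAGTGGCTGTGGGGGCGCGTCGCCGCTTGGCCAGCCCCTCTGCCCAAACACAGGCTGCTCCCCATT
Camta1: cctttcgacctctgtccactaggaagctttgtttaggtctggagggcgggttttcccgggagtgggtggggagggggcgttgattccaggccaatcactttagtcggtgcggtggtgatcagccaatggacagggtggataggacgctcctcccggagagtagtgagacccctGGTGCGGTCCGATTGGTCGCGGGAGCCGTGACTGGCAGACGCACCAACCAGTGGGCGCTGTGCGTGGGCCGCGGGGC
Day 2 positions covered 80, 209 and 250 of the 250 bases in Nav2, Elmo1 and Syne1, and 32, 250 and 77 bases in Sdk1, Anks1b and Camta1. Full and sparse cover occurred in both groups. The 6 windows held 7, 21, 7, 44, 20 and 18 CpG dinucleotides in the order shown. Over the 124 long genes with a usable promoter entry the median was 13.5 CpG, against 16 in genes of 200 to 500 kb and 10 in all 14686 other protein-coding genes. The motif AGATAA, whose core is the DNA sequence bound by GATA factors such as the erythroid GATA1, was present on either strand in 8.06% of the long-gene windows and 9.02% of the others, and in none of the 6 shown. The match is to these letters only and says nothing about binding.

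Long gene bodies held few listed positions for their size. Base composition and the share of sequence to which reads can be mapped were not measured here. The bodies contained 3.48% (3.46 to 3.50), 2.43% (2.42 to 2.45) and 4.34% (4.32 to 4.36) of the autosomal positions on days 0, 1 and 2, on 7.25% of the autosome length. The median relative density of the 209 bodies was 0.388, 0.228 and 0.550 on the 3 days, against 2.16, 2.47 and 1.85 in the 16532 other protein-coding genes that held at least 30 positions over the 3 lists. All 209 long genes passed this minimum, the sparsest with 431 positions. A very short gene passed it only where it was dense, so values over the other genes or all genes lean toward dense genes. The lower quartile of the bodies was 0.199, 0.122 and 0.418, and the upper quartile 0.758, 0.485 and 0.777.

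The spread between long genes was wide on day 1 and narrow on day 2. The coefficient of variation of body density was 0.819, 1.04 and 0.464 on days 0, 1 and 2. The days had the same order in genes of 200 to 500 kb (0.653, 0.878 and 0.492) and in all other genes (0.449, 0.548 and 0.380). It is thus not particular to the long genes. Among the long genes, the lowest body stood at 0.0881 on day 0 (Csmd3, a large cell surface protein with CUB and sushi domains) and at 0.0650 on day 1 (Ralyl, an RNA-binding protein). On day 2 the lowest body, again Ralyl, stood at 0.303. The highest were Cacna1c, the pore of a heart and brain L-type calcium channel, at 2.06 on day 0, and Foxp1 at 2.34 and 1.84 on days 1 and 2. Rad51b, a factor of homologous recombination, was the next highest on each day, with 1.95, 2.27 and 1.76. The ranking of genes was largely shared between days, with Spearman's rho of 0.90 between days 0 and 1, 0.97 between days 1 and 2 and 0.92 between days 0 and 2 over the 209 genes. These genes share their libraries, and the values are a description.

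The bodies were also less dense than their own neighbourhoods. The flanks, the 500 kb on each side, had median relative densities of 0.677, 0.532 and 0.777 on days 0, 1 and 2, all above the body medians of the same day. The median of the ratio of body to flank density was 0.702, 0.555 and 0.794. The ratio was under 1 in 174, 175 and 167 of the 209 genes. Over the 16741 protein-coding genes with at least 30 positions it was under 1 in 4523, 4901 and 4674. In the long genes its counting interval lay wholly under 1 in 152, 154 and 147, wholly above 1 in 23, 20 and 23, and held 1 in 34, 35 and 39. The median ratio was under 1 on each of the 19 autosomes on every day, with an SD of the chromosome medians of 0.163, 0.146 and 0.125. The flanks hold other genes, and with all protein-coding genes taken out of the flanks the medians were 0.765, 0.642 and 0.852, still under 1.

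**Figure D1:**
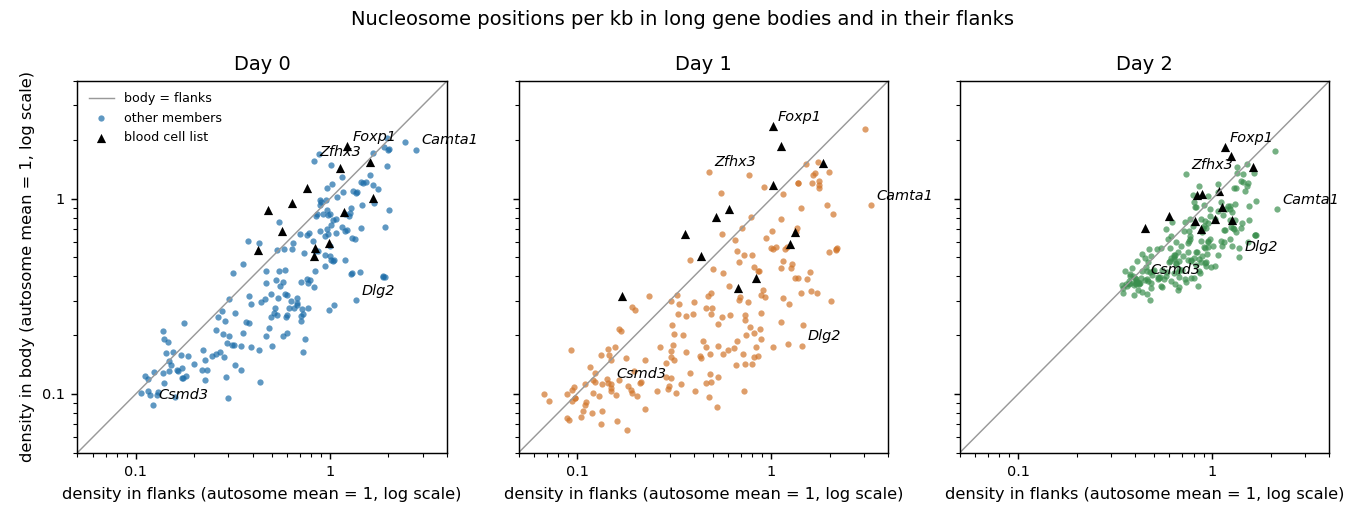
Relative density of nucleosome positions in the body of each of the 209 long genes (vertical axis, log scale) against that in its 500 kb flanks (horizontal axis, log scale) on days 0, 1 and 2, where 1 is the autosome mean of that day and the line marks equal density. Most genes lie under the line on each day, the cloud is longest on day 1, and on day 2 no body lies under 0.303.

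By size, a body was counted as below its flanks where the ratio was 0.8 or less and as above them where it exceeded 1 by 25% or more, which is a rule of size and not a test. Bodies of 133 long genes lay below their flanks on day 0, or 63.6% of the 209, where 10.8% of the 16741 protein-coding genes with enough positions did. On day 1 the number was 147, or 70.3%, with 17.8% of all genes below. On day 2 it was 110, or 52.6%, with 11% of all genes below. The share of long genes was several times that of all genes on each day. The opposite side was rare among them: 18, 17 and 8 bodies lay above their flanks on days 0, 1 and 2, or 8.61%, 8.13% and 3.83%, where 37.1%, 49.6% and 40.4% of all genes did. On all 3 days 103 bodies lay below and 8 above, and no gene was below on 1 day and above on another. These counts were not made over all genes. A ratio under 1 on all 3 days was found in 152 of the 209 long genes and in 3113 of the 16741. A ratio above 1 on all 3 days was found in 20 and 10345.

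The position of these genes at the end of a trend with length is visible in the other genes. The median ratio of body to flank density on day 0 was 0.702 in the long genes, 0.90 in genes of 200 to 500 kb, 1.02 at 100 to 200 kb, 1.09 at 30 to 100 kb, 1.18 at 10 to 30 kb and 1.27 in genes under 10 kb. On day 1 the same medians ran 0.555, 0.753, 0.982, 1.12, 1.29 and 1.43, and on day 2 they ran 0.794, 0.882, 1.02, 1.10, 1.21 and 1.32. A short gene lies wholly next to its own start and end, so its body and flanks differ in more than length. Very short genes also had to be dense to hold the 30 positions required, so the medians of the shortest classes lean toward dense genes. At the length limit itself there was no step. The 3 shortest of the long genes, Edil3 (an integrin-binding secreted protein), Dock1 (an activator of the GTPase Rac) and Samd12, had ratios of 0.60, 0.81 and 0.73 on day 0. The 3 longest genes under the limit, Dnm3 (a dynamin), Lrrc7 (a synaptic scaffold) and Cacna1e (a calcium channel), had 0.94, 0.60 and 0.59.

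**Figure D2:**
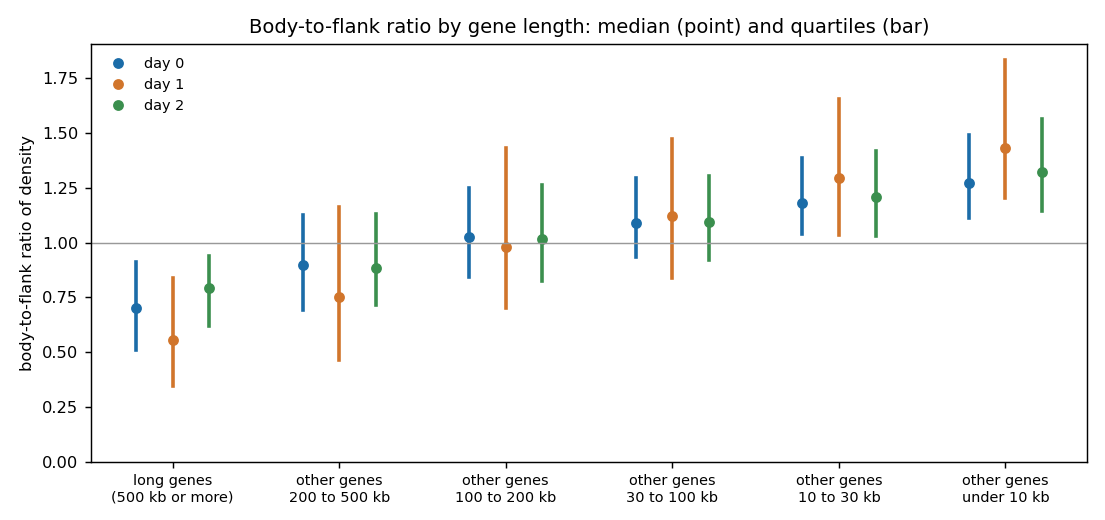
Ratio of body to flank density (vertical axis, starting at 0) by gene length class, with the 209 long genes on the left and shorter genes to the right, on days 0, 1 and 2. Points are medians over genes and bars run from the lower to the upper quartile. The day 0 median is 0.702 in the long genes and 1.27 in genes under 10 kb.

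Within the long genes, length still mattered to some degree. The 53 genes of 1 Mb or more had median body densities of 0.270, 0.144 and 0.453 on days 0, 1 and 2, against 0.511, 0.295 and 0.605 in the 156 shorter ones, and median ratios of 0.631, 0.523 and 0.766, against 0.729, 0.565 and 0.796. Over the 209 genes, Spearman's rho between length and body density was -0.33, -0.36 and -0.36, and between length and the ratio it was -0.21, -0.16 and -0.16. The density of a body followed that of its flanks more closely, with rho of 0.85, 0.78 and 0.77. The number of protein-coding genes in the flanks, from 0 in 22 genes to 28, had a positive rho with body density (0.58, 0.55 and 0.53) and a negative one with the ratio (-0.25, -0.40 and -0.42). Long genes among many neighbours thus tended to be denser, and to stand lower against those neighbours. All of these are descriptions over genes that share 3 libraries.

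The 5 longest genes show the range within the class. Ptprd, a receptor tyrosine phosphatase of synapses, spans 2271 kb and held 542, 230 and 1523 positions on days 0, 1 and 2, with ratios of 0.84, 0.77 and 0.92. Lsamp, a cell adhesion protein of limbic neurons, held 683, 292 and 1544 positions, with ratios of 0.72, 0.72 and 0.84. Lrp1b, a lipoprotein receptor relative, held 464, 324 and 1448 positions, with ratios of 0.99, 1.03 and 0.95. These genes lay in sparse surroundings, with flank densities of 0.18, 0.28 and 0.15 on day 0. Cntnap2, which gathers potassium channels along axons, held 930, 481 and 1830 positions. Its flanks were close to the autosome mean at 0.99, 1.03 and 0.98, so its ratios were 0.27, 0.17 and 0.46. Macrod2, an ADP-ribose hydrolase, lay between them with 1085, 562 and 2215 positions and ratios of 0.43, 0.43 and 0.69. Body densities of the 5 genes ran from 0.15 to 0.35 on day 0, a narrower range than that of their ratios.

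The genes that stood lowest against their flanks differed in how dense those flanks were. Dlg2, the postsynaptic scaffold PSD-93 (chr7:90476188-92449246), held 913, 429 and 1811 positions in its body and 2088, 1786 and 2493 in its flanks. Its ratios were 0.22 (0.20 to 0.24), 0.12 (0.11 to 0.14) and 0.37 (0.35 to 0.39). It was the lowest of the genes with a full symbol on days 0 and 2. Pcdh15, a protocadherin of the tip links of hair cells, had ratios of 0.23, 0.14 and 0.42, and Ctnna3, an alpha-catenin of heart and testis, had 0.27, 0.15 and 0.44. Sntg1, a syntrophin, had 0.26, 0.24 and 0.57, and Iqcm had 0.26, 0.19 and 0.49. On day 0 the flanks of Dlg2 stood at 1.36 and those of Ctnna3 at 1.05, above the autosome mean, while those of Iqcm, Pcdh15 and Sntg1 stood at 0.74, 0.72 and 0.44. Anks1b, a postsynaptic signalling protein, had 0.32, 0.15 and 0.41. Sdk1, an adhesion protein that pairs retinal synapses, held 1307, 360 and 1069 positions and had ratios of 0.43, 0.15 and 0.40. Each of these genes had its lowest ratio on day 1.

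A small group stood the other way. The 8 genes above their flanks by 25% or more on all 3 days were Auts2, Elmo1, Foxp1, Nav2, Nfia, Rora, Syne1 and Zfhx3. The group holds 5 regulators of transcription: Foxp1 is a forkhead factor needed for B cell formation, Nfia a nuclear factor I protein that favours the erythroid fate in human blood progenitors, Rora a nuclear receptor, Zfhx3 a zinc finger and homeodomain factor, and Auts2 a nuclear protein found with Polycomb complexes. Elmo1 activates Rac together with Dock proteins, Syne1 (nesprin-1) ties the nucleus to the cytoskeleton, and Nav2 is a microtubule-binding protein of growing axons. Foxp1 (chr6:98925342-99522746) held 1700, 1729 and 2003 positions in its body and 1881, 1256 and 2109 in its flanks. Its ratios were 1.51 (1.42 to 1.62), 2.30 (2.14 to 2.48) and 1.59 (1.49 to 1.69). Zfhx3 (chr8:108279311-108961636) held 1628, 1159 and 1661 positions, against 1273, 592 and 1331 in its flanks, with ratios of 1.87 (1.74 to 2.02), 2.87 (2.60 to 3.17) and 1.83 (1.70 to 1.97). The intervals of both genes on day 1 lay above those of days 0 and 2. The flanks of Foxp1 were unequal: the upstream 500 kb had mean relative densities of 1.65, 1.64 and 1.53 on days 0, 1 and 2, and the downstream 500 kb 0.80, 0.40 and 0.78. Its body, at 1.85, 2.34 and 1.84, thus stood little above the upstream side on days 0 and 2, and the dense stretch reached about 300 kb upstream, where the mean was 1.65, 1.96 and 1.73.

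The remaining genes of the group had their highest ratio on day 1 as well, except Nav2. Elmo1 held 897, 1193 and 1552 positions, with ratios of 1.48, 1.66 and 1.32, and its body density of 1.13, 1.87 and 1.64 was highest on day 1. Syne1 held 617, 701 and 1005 positions, with ratios of 1.39, 1.94 and 1.31. Auts2, with ratios of 1.84, 1.87 and 1.57, lay in sparse surroundings, with body densities of 0.88, 0.32 and 0.71 and flank densities of 0.48, 0.17 and 0.45. Nfia had ratios of 1.5, 1.84 and 1.37, with body densities of 0.95, 0.66 and 0.81. Its upstream side stood at 0.33, 0.14 and 0.43 and its downstream side, close to the body, at 0.94, 0.56 and 0.76. Rora had ratios of 1.27, 1.45 and 1.26. In Nav2 the ratio was 1.92, 1.73 and 1.36 on days 0, 1 and 2. With flanks of 250 kb in place of 500 kb, Nav2 on day 2 stood slightly under its flanks, at a log2 ratio of -0.06.

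**Figure D3:**
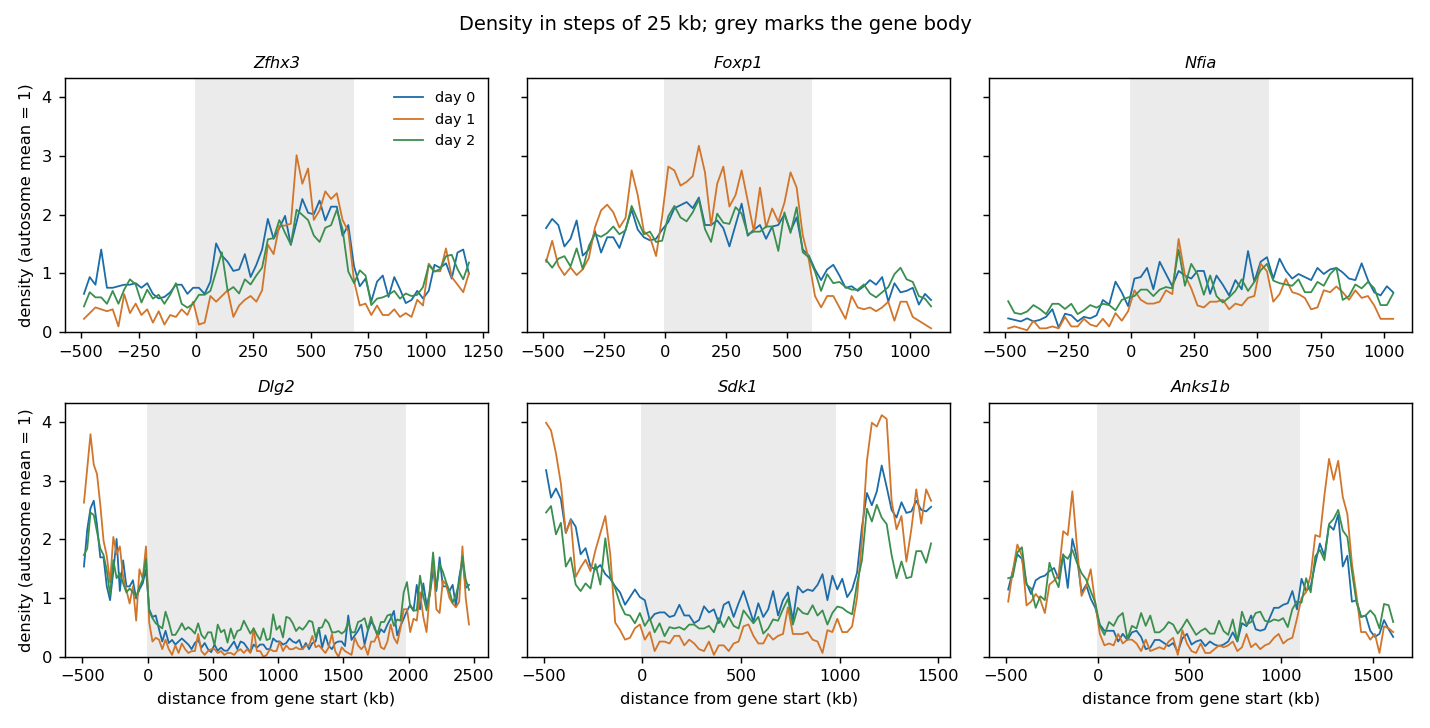
Relative density in steps of 25 kb along 3 genes denser than their flanks (Zfhx3, Foxp1, Nfia, upper row) and 3 genes less dense than theirs (Dlg2, Sdk1, Anks1b, lower row), from 500 kb before the gene start to 500 kb after its end, on days 0, 1 and 2. Grey marks the gene body and 1 is the autosome mean. In Dlg2 the density drops at the gene start and stays low over the whole body, and in Zfhx3 the 3′ portion is the dense one.

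The boundary of the sparse stretch lay near the gene start in Dlg2, and less clearly so in Anks1b and Sdk1. In Dlg2 the last 25 kb before the gene start held 57, 58 and 76 positions on days 0, 1 and 2, relative densities of 1.49, 1.88 and 1.67. The first 25 kb of the body held 31, 18 and 35 positions, or 0.81, 0.58 and 0.77, and this was the densest of the 78 steps in the body on every day. The median step of the Dlg2 body stood at 0.26, 0.13 and 0.48. Anks1b held 32, 28 and 42 positions in the last 25 kb before the start and 21, 12 and 24 in the first 25 kb after it. Its density had already fallen before the start. On day 0 that last step stood at 0.83, the lowest value of the upstream 500 kb, whose mean was 1.37. Sdk1 held 39, 17 and 34 positions before its start and 37, 9 and 24 after, nearly equal on day 0 only, and the step 50 to 75 kb upstream already held no more than 39, 10 and 32.

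Dense genes were dense along different portions. In Foxp1 the 23 steps of the body ranged from 1.41 to 2.29 on day 0, from 1.65 to 3.17 on day 1 and from 1.36 to 2.26 on day 2, and the densest step on each day lay 125 to 150 kb from the start. In Zfhx3 the steps ranged from 0.65 to 2.27, from 0.13 to 3.01 and from 0.64 to 2.08. The first 25 kb of Zfhx3 held 29, 4 and 29 positions, and the densest step lay 450 to 475 kb from the start on day 0 and 425 to 450 kb on days 1 and 2. In Nfia the densest step lay 450 to 475 kb from the start on day 0, at 1.38, and 175 to 200 kb from it on days 1 and 2, at 1.59 and 1.40. The median steps were 0.94, 0.55 and 0.72.

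Over the 164 long genes whose strand was known from a promoter entry, the density rose slightly in the outermost steps and then declined toward the gene start. It went on declining within the gene. Mean relative density was 0.839, 0.807 and 0.890 on days 0, 1 and 2 at 475 to 500 kb before the start, 0.651, 0.548 and 0.746 in the last 25 kb before it, and 0.513, 0.337 and 0.610 at 225 to 250 kb inside. Around the 3′ end the course was similar but shallower. The mean was 0.555, 0.366 and 0.630 at 225 to 250 kb inside the end, 0.729, 0.601 and 0.799 in the last 25 kb of the body and 0.829, 0.780 and 0.902 at 475 to 500 kb beyond it. With the body cut into 20 equal slices, the lowest mean fell in slice 7, 8 and 8 on days 0, 1 and 2, at 0.492, 0.312 and 0.593, and the highest in slice 20, at 0.720, 0.579 and 0.794. The first 50 kb was denser than the middle of the same gene in 96, 111 and 99 of the 164 genes, and the last 50 kb in 102, 102 and 114.

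**Figure D4:**
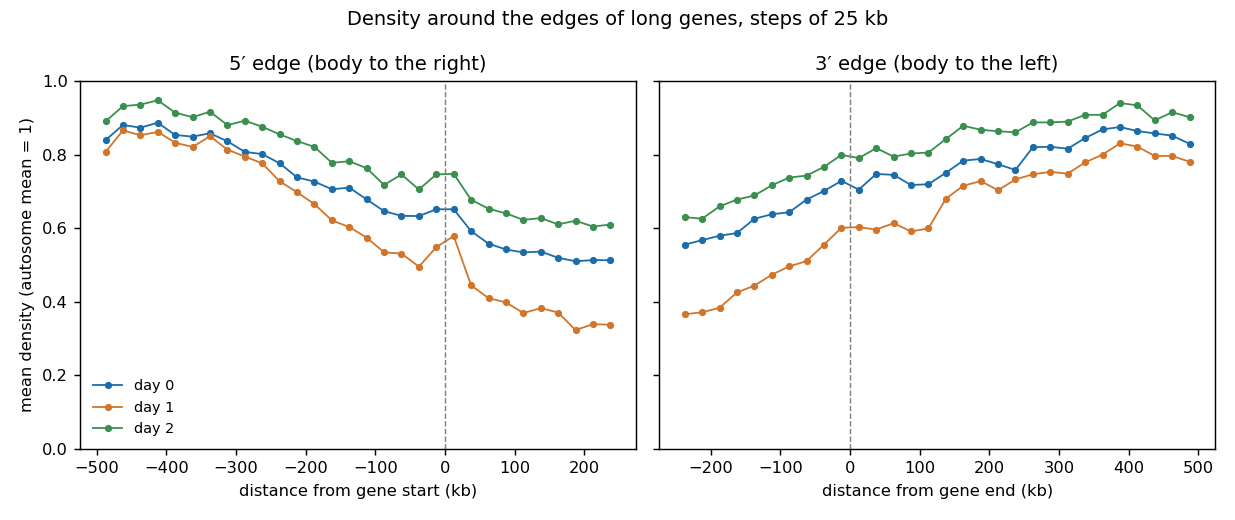
Mean relative density over 164 long genes in steps of 25 kb around the 5′ edge (left) and the 3′ edge (right) of the span on days 0, 1 and 2, with distance in kb on the horizontal axis and the edge at the dashed line. Density rises slightly over the outermost steps and then declines toward the gene, and 225 to 250 kb inside the start it is 0.513, 0.337 and 0.610.

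The gene start itself broke this decline within a few kb. In the first kb after the start the 164 genes held 286, 401 and 442 positions on days 0, 1 and 2, mean relative densities of 1.14, 1.98 and 1.48, against 0.655, 0.530 and 0.760 at 1 to 6 kb upstream. From 2 to 3 kb inside, the means were back to 0.651, 0.578 and 0.759. Relative to the body of the same genes the first kb was 2.01, 4.90 and 2.26 times as dense. In genes of 200 to 500 kb this factor was 1.61, 2.63 and 1.74, and in genes under 10 kb it was 0.996, 1.03 and 1.03. The first kb of long genes was nonetheless the least dense of the length classes on each day, against 1.75, 2.63 and 1.83 in genes of 200 to 500 kb. Their larger factor thus goes with a sparser body. At least 1 position in the first kb was listed for 72.6%, 75% and 87.8% of the long genes. In genes of 200 to 500 kb the shares were 86.6%, 86.8% and 94.1%. In the 250 bases before the annotated start, a position centre was listed on days 0, 1 and 2 in 31.5%, 57.3% and 66.1% of the 124 long genes with a usable entry. In the other genes the shares were 46.0%, 46.8% and 55.4%. Genes of 200 to 500 kb, with 41.8%, 53.2% and 60.9%, lay between the long genes and the other genes on each day.

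The 3 days differed more in the bodies than in the flanks. The median log2 change of body density was -0.60 for day 1 over day 0, 1.255 for day 2 over day 1 and 0.62 for day 2 over day 0, and for the flanks it was -0.23, 0.49 and 0.24. In the other protein-coding genes the medians of the body were 0.23, -0.41 and -0.20, of the opposite sign at each step. The course was graded by length, however, and in genes of 200 to 500 kb the medians were -0.30, 0.47 and 0.03, of the same sign as in the long genes. Body density was lower on day 1 than on day 0 in 182 of the 209 long genes, higher on day 2 than on day 1 in 191, and higher on day 2 than on day 0 in 160. Of the 16741 genes with enough positions, the same held for 5151, 4413 and 4876. These changes are relative to the autosome mean of each list, so a lower share in some regions goes with a higher share in others.

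Counted by size, with 1.5 times as the limit, 106 of the 209 bodies (50.7%) were lower on day 1 than on day 0, where 10.4% of all genes were, and 2 were higher (0.957%), where 9.35% of all genes were. These 2 were Elmo1 and Trpm3, a cation channel. From day 1, 164 bodies (78.5%) were higher on day 2, where 11.6% of all genes were, and none was lower, where 28.8% of all genes were. Between the ends of the series, 106 bodies (50.7%) were higher on day 2 than on day 0, where 8.29% of all genes were, and 7 were lower (3.35%), where 8.22% of all genes were. In genes of 200 to 500 kb the day 2 over day 0 counts were 165 higher and 53 lower of 729, or 22.6% and 7.27%.

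Genes with the largest increases were among the sparsest on day 0. The day 0 density enters the change itself, which favours such an order. Csmd3 held 848 positions on day 2, against 164 on day 0, which is a log2 change of relative density of 2.12. Cadm2, a synaptic adhesion protein, held 664 against 147 (1.92), Khdrbs2, an RNA-binding splicing regulator, 367 against 84 (1.87), Pcdh9, a protocadherin, 584 against 136 (1.85), and Adgrb3, an adhesion receptor of synapses, 467 against 113 (1.79). All 5 had relative body densities of 0.33 to 0.38 on day 2, against 0.088 to 0.10 on day 0. Their flanks changed by 1.87, 1.78, 1.52, 1.92 and 1.45 in the same order, less than the bodies in 4 of the genes and more than the body in Pcdh9.

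The largest decreases were in denser genes, where the day 0 density again enters the change. Camta1, a calmodulin-binding transcription activator, held 1288 positions on day 2, against 2189 on day 0, a log2 change of -1.01. The changes were -0.76 in Cacna1c, -0.74 in Thsd4 (an extracellular matrix protein), -0.74 in Csmd2 and -0.72 in Asic2, an acid-sensing channel. Their flanks changed by -0.36, -0.45, -0.35, -0.41 and -0.41, so that the bodies went beyond their neighbourhoods. On day 1, the shortest list, each of the 5 genes had fewer positions than on days 0 and 2. Asic2, for example, held 1970, 529 and 1419 positions on days 0, 1 and 2. In relative density, day 1 lay above day 2 in Camta1 (0.93 against 0.88), Cacna1c (1.32 against 1.22) and Thsd4 (1.17 against 1.10). It lay below day 2 in Csmd2 (0.34 against 0.57) and Asic2 (0.39 against 0.72).

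The ratio of body to flank density removes what body and neighbourhood share. Its median log2 change was -0.29 for day 1 over day 0, 0.49 for day 2 over day 1 and 0.17 for day 2 over day 0, against 0.09, -0.08 and 0.01 in the other genes. The ratio was higher on day 2 than on day 0 in 144 of the 209 genes, and in 8791 of the 16741 genes with enough positions. The median change lay above 0 on 18 of the 19 autosomes, from -0.02 to 0.88. The highest value, on chromosome 18, rests on 5 genes, some of them unnamed gene models. By the same limits, the ratio was higher on day 2 by 25% or more in 73 genes (34.9%), where 10.8% of all genes were, and lower by 20% or more in 15 (7.18%), where 10.7% of all genes were. The day 2 over day 0 difference was not seen among strong positions. Summit values of at least 10 belonged to 2.65% of body positions on day 2 and 4.69% on day 0. Among these, the median change of the ratio was -0.01, and the median ratios were 0.396, 0.304 and 0.387 on days 0, 1 and 2.

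At single genes, the largest increases of the ratio were in Skint5, with 0.70 on day 2 against 0.32 on day 0, and in Sgcz, a sarcoglycan of muscle membranes, with 0.91 against 0.42. Sntg1 followed with 0.57 against 0.26, then Iqcm with 0.49 against 0.26 and Pcdh15 with 0.42 against 0.23. In these genes the flanks changed by 0.63, 0.50, 0.55, 0.12 and 0.21 on the log2 scale, and the bodies by 1.76, 1.62, 1.67, 1.04 and 1.12. The largest decreases were in Camta1 (0.41 on day 2 against 0.64 on day 0), Slit3, a guidance ligand of Robo receptors (0.83 against 1.17), Nav2 (1.36 against 1.92), Npas3, a neuronal transcription factor (0.52 against 0.72), and Ptprg, a receptor tyrosine phosphatase (1.17 against 1.61).

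The functional groups within the class differed more in body density than in the ratio. Of the 209 genes, 143 fell into 6 lists of genes by function, which overlap in part, and 66 into none. The 44 adhesion and axon guidance genes were the sparsest, with median body densities of 0.20, 0.12 and 0.42 on days 0, 1 and 2. The 19 neurotransmitter receptor and ion channel genes had 0.28, 0.19 and 0.48. The 23 genes of the list named widely expressed maintenance genes had 0.43, 0.27 and 0.61, and their expression was not checked. The 38 signalling and scaffold genes had 0.65, 0.36 and 0.70, and the 19 transcription and RNA regulators 0.81, 0.35 and 0.70. The 13 genes with a known role in blood cells were the densest on every day, with 0.88, 0.68 and 0.91. Each of the 6 lists had its lowest median on day 1.

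Against the flanks, only the blood list had a median above 1. Its ratios were 1.2, 1.18 and 1.02 on days 0, 1 and 2, beside 0.702, 0.555 and 0.794 over all 209 genes. On day 2, 7 of its 13 genes had a ratio above 1 and 6 below. The lists were chosen with earlier results of these data known, which limits this contrast. By size, 6, 6 and 5 of its 13 genes lay above their flanks, where 37.1%, 49.6% and 40.4% of all genes did, and 5, 4 and 3 below, where 10.8%, 17.8% and 11% did. The share above was thus near that of all genes, and it was 8.61%, 8.13% and 3.83% over all long genes. The upper ones included Foxp1 and Auts2. The lowest were Celf2, an RNA-binding splicing regulator active in lymphocytes, with ratios of 0.59, 0.47 and 0.81, and Lrba, a vesicle trafficking protein of immune cells, with 0.61, 0.51 and 0.62. Receptor and channel genes stood at the other end, with medians of 0.65, 0.40 and 0.69, and none of the 19 lay above its flanks by size on any day. By the mean of the 3 days Grm7, a glutamate receptor, was their highest with ratios of 1.05, 0.98 and 0.98, and Cacna2d3, a calcium channel subunit, was their lowest with 0.57, 0.18 and 0.51.

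**Figure D5:**
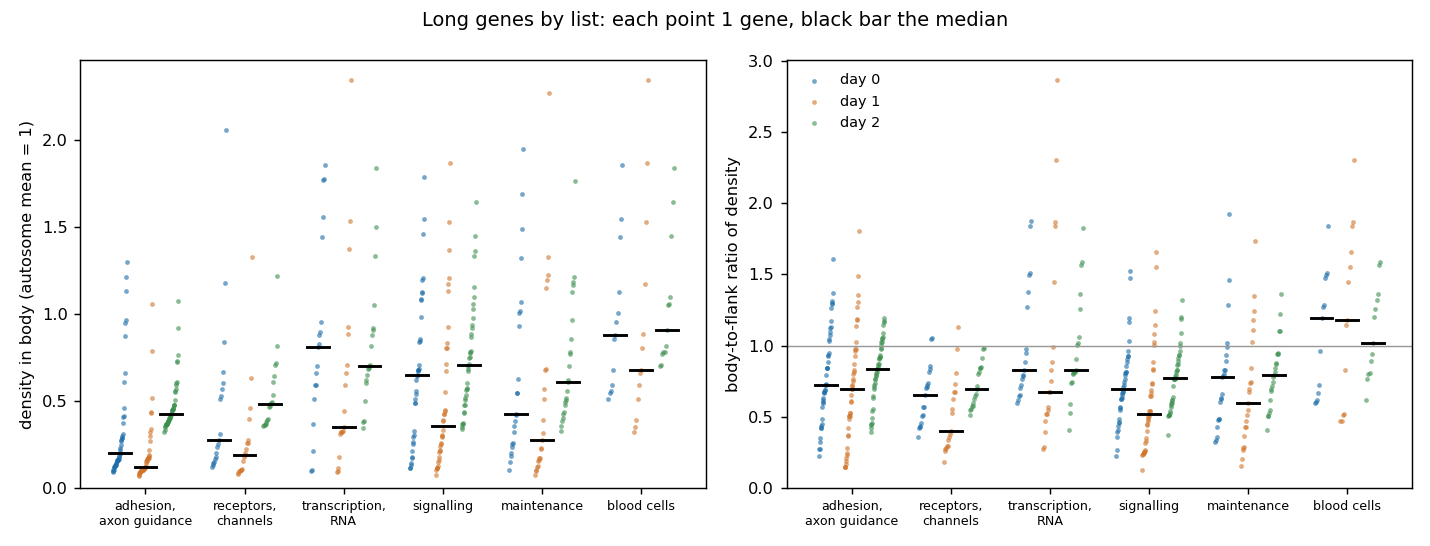
Relative body density (left) and ratio of body to flank density (right) of the long genes in 6 lists by function, on days 0, 1 and 2, both axes from 0. Each point is 1 gene, the black bars are medians and the grey line on the right marks equal density. The adhesion list has the lowest median densities, 0.20, 0.12 and 0.42, and the blood cell list is the only one with median ratios above 1. The lists were chosen with earlier results of these data known.

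The remaining lists had medians under 1 with single genes far above. Adhesion genes had median ratios of 0.73, 0.69 and 0.84, from Pcdh15 and Ctnna3 at the low end to Adgrl3 (latrophilin-3, with 1.37, 1.80 and 1.14) and Ptprg (1.61, 1.30 and 1.17) at the high end. Transcription and RNA regulators had 0.83, 0.68 and 0.83, from Camta1 (0.64, 0.28 and 0.41) to Zfhx3. Signalling genes had 0.69, 0.52 and 0.77, from Dlg2 to Elmo1. Maintenance genes had 0.78, 0.60 and 0.80, from Anks1b and Nell1 (0.34, 0.20 and 0.52) to Nav2 and Wwox, an oxidoreductase at a fragile site (1.46, 1.245 and 1.10). Anks1b and Nav2 are known for roles in neurons, which the name of the list does not cover.

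Between day 0 and day 2 the lists moved by different amounts. The median log2 change of body density, day 2 over day 0, was 1.13 in adhesion genes, 0.93 in receptor and channel genes, 0.37 in blood genes, 0.36 in signalling genes, 0.36 in maintenance genes and -0.09 in transcription and RNA regulators. By the limit of 1.5 times, 8.29% of all genes and 50.7% of the long genes were higher, and 8.22% and 3.35% were lower. Of the 44 adhesion genes 31 were higher and 1 was lower. Of the 19 transcription and RNA regulators 4 were higher and 1 was lower. The median change of the ratio was smaller throughout, at 0.17, 0.16, 0.00, 0.09, 0.11 and -0.04 in the same order of lists. The adhesion and receptor lists, lowest in density on day 0, had the largest changes, and the day 0 density enters the change itself.

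The positions inside long genes were also weaker, and their next centre lay less often at the distance of an adjoining nucleosome. The summit value, a coverage smoothed by the authors and read at a position's centre, had medians of 6.10, 5.83 and 5.63 in bodies on days 0, 1 and 2, against 6.86, 6.47 and 6.26 in flanks and 7.62, 6.80 and 6.26 over the autosomes. These values take few distinct steps within a list. Median fuzziness, a score for how far reads scatter about a centre, was 48.6, 52.4 and 49.0 in bodies, against 49.95, 53.8 and 50.3 in flanks, so listed body positions had the narrower spread on each day. The next centre lay 150 to 250 bp away, the distance of an adjoining nucleosome, for 23.0%, 20.5% and 22.9% of body positions, against 29.3%, 29.4% and 29.3% of flank positions. Among neighbours within 1000 bp the shares were closer, with 33.7%, 35.0% and 32.0% in bodies and 36.4%, 37.7% and 35.6% in flanks. At summit values of 10 or more the order of these shares was reversed, with 33.1%, 44.9% and 34.0% in bodies and 32.2%, 39.6% and 32.1% in flanks. The part of summit height in the lower density was not tested.

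Over all listed positions, fewer of those in long genes than in flanks were found again on another day, by about as much as the searched lists were sparser. Of the 128431 body positions of day 0, 9.42% (9.26 to 9.58) had a day 2 centre within 20 bp, against 13.3% (13.2 to 13.4) of flank positions and 15.8% over the autosomes. For day 1 positions found again on day 2 the shares were 12.4% in bodies and 16.5% in flanks, and for day 0 positions found on day 1 they were 5.50% and 10.3%. On all 3 days a centre was kept for 0.916% of day 0 body positions and 2.15% of flank positions. The share in bodies over that in flanks was 0.708 for day 0 on day 2, 0.755 for day 1 on day 2 and 0.532 for day 0 on day 1. The density of the searched list in bodies over that in flanks was 0.710, 0.710 and 0.477 for the same pairs. At summit values of 10 or more, the shares in bodies over flanks were 0.459, 0.756 and 0.331, beside densities of 0.313, 0.313 and 0.190. Whether positions in bodies were less stable was not tested.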

How the data were processed

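For each library the authors deposited a list of nucleosome positions. Bowtie2 and bedtools were used with the build mm10, per the submitters' processing notes. Summit values are a smoothed coverage signal, per the names of the deposited lists. For tool versions, the caller of positions and read totals, nothing is given in the sources used here. The deposited p-values of summit and fuzziness were not used, and the deposited fuzziness score has no stated unit.

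Centres were counted per gene span, leaving out 105 table entries that start below 3 Mb, in flanks of 500 kb clipped to the range of the lists. Before each ratio, 0.5 was added to both numbers. Strand came from promoter entries, which 164 of the 209 genes have. Ratio intervals are conditional binomial and share intervals Clopper-Pearson, at 95%. The script recovered the densities of simulated lists. Python 3.11.15, numpy 2.4.6, pandas 2.3.3, scipy 1.17.1 and matplotlib 3.10.9 were used.

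Members and lists were chosen with earlier results of these data known. Named genes are the 5 longest, the 5 highest and 5 lowest by ratio on days 0 and 2 and by both day 2 over day 0 changes, the 2 highest and 2 lowest of each list by mean ratio, and those at the length limit. Ralyl, Rad51b, Rora and Syne1 were added after their values were seen. Of the 209 spans, 5 overlap another member, and 4 belong to unnamed gene models. Alternatives concerned summit weights and thresholds, list size, flank width and content, gene ends and the matching distance.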

Additional observations from a re-analysis of the deposited data

How the results depend on the processing

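No paired analysis was possible because each day has 1 library. Of 179 values recomputed for the main comparisons, 134 stayed close to the reported one, 44 moved and 1 changed sign, and the direction of the body-to-flank difference held on each day in every alternative run. Some of the 134 could hardly move. All 209 genes passed the minimum of positions, and stretches of 50 kb or more without positions touched 1 gene. A ratio of summed positions repeated the reported values at the gene start. Cutting the lists toward equal number left day 1 whole. The value that changed sign was the median log2 change of the ratio, day 2 over day 0, at -0.00679 for summit values of 10 or more. The same threshold gave median body densities of 0.0451, 0.0298 and 0.0882 on days 0, 1 and 2, median ratios of 0.396, 0.304 and 0.387, a change of body density of 0.868 (day 2 over day 0) and a change of ratio of -0.44 (day 1 over day 0). Weighting by summit value gave a day 2 body density of 0.479 and ratios of the first 25 kb to 225 to 250 kb inside of 1.90 on day 1 and 1.30 on day 2. Lists cut by summit value toward equal number gave a change of body density of 0.739. Ties left them at 3222278, 2967550 and 4191688 positions on days 0, 1 and 2, so their sizes still differed.

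Among the genes of 750 kb or more, median body densities were 0.292, 0.168 and 0.477, the day 1 ratio 0.485, the day 2 over day 0 change of body density 0.728, and the size counts, over fewer genes, 65 higher on day 2 than on day 0, 57 lower on day 1, and 75, 77 and 61 below their flanks. Flanks of 250 kb gave ratios of 0.769, 0.669 and 0.838 and a day 1 change of -0.201, flanks of 1000 kb gave 0.636, 0.491 and 0.738, and flanks without genes gave 0.765 and 0.852 on days 0 and 2 and a day 1 change of -0.197. The body-minus-flank difference of median summit value was -0.0764, -0.324 and 0 at summit values of 10 or more and -1.25 on day 2 by per-gene medians. That of fuzziness was -1.49, -1.05 and -1.44 at the threshold and -2.67, -2.58 and -1.86 by per-gene medians. The share of kept positions, bodies over flanks, was 0.459 for day 0 on day 2 and 0.480 for day 2 on day 0 at the threshold. The density of the searched list, bodies over flanks, was 0.313 and 0.328 for these pairs. The cause of these shifts was not tested.

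Of the single-gene ratios, 7 changed sign in 1 alternative each. At summit values of 10 or more, the log2 ratio on day 0 was 1.42 in Gabrg3, 2.49 in Khdrbs2, 0.14 in Lsamp and -1.91 in Sorcs1. With flanks of 250 kb it was 0.0884 in Dock1 and -0.0626 in Nav2 on day 2, and with flanks without genes 0.316 in Samd12 on day 0. Few positions pass the threshold in sparse genes, which limits those values. The alternative without overlapping other genes in the body was chosen after the data were seen and moved none of the main values. List sizes limit all comparisons between days.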
